A study of Sus scrofa with 4 samples.

Results

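The microRNAs miR-103, miR-107 and miR-378 were followed in longissimus dorsi, the long back muscle, of 4 pig breeds. They were chosen by name, as the rows of the deposited table of known miRNAs whose base name is miR-103, miR-107 or miR-378. This gave 3 of the 271 listed miRNAs, and all 3 passed the filter on low counts that left 197 miRNAs for testing. The table lists 1 row for each of them, with 0 rows for an opposite arm and 0 for a lettered relative such as miR-378b.

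Small RNA was sequenced on an Illumina HiSeq from Diannan Small Ear and Tibetan pigs, which are indigenous Chinese breeds, and from Landrace and Yorkshire pigs, which are introduced breeds. Each breed had 1 library, so each type had 2. No treatment or genotype other than breed is named, and the labels give no age, sex or number of animals per library. Nothing says that the libraries stand for separate animals, so p-values reflect no more than the differences among 4 libraries, which may be technical.

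In vertebrates miR-103 and miR-107 lie in genes of the pantothenate kinases (PANK), the enzymes that start the synthesis of coenzyme A, the carrier of acyl groups in fat and carbohydrate oxidation. They share a seed, the stretch that pairs with target transcripts, and in mice they lower insulin sensitivity and repress caveolin-1 (CAV1). miR-378 lies in PPARGC1B, the gene of the coactivator PGC-1β, which drives genes of mitochondria and fat oxidation, and in mice loss of miR-378 raises oxidative metabolism and lowers fat storage. miR-378 also rises as mouse myoblasts differentiate.

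In the RefSeq gene table of the pig assembly Sscrofa11.1, 5 precursors match the 3 names, and 4 of them fall inside a PANK gene or PPARGC1B. MIR103-1 falls inside PANK3, MIR103-2 inside PANK2, and MIR107 inside PANK1 and the locus LOC110256785. MIR378-1 falls inside PPARGC1B, whereas MIR378-2 falls inside BCAS3, a gene outside the PANK and PGC-1 families. The counts of miR-103 and of miR-378 cannot be divided between their copies, so the level of miR-378 is not a measure of the PPARGC1B copy alone. The table gives gene spans without exons, and the build behind the counts was not stated, so coordinates are left out.

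Total counts ran from 2507082 (Landrace) to 5346460 (Yorkshire) per library. The libraries did not group by type. With scaling by the trimmed mean of M-values (TMM), 4.08% of miRNAs were at least 2-fold higher in Diannan Small Ear than in Landrace and 4.59% at least 2-fold lower, against 27.3% and 36.6% for Diannan Small Ear over Tibetan. For Tibetan over Yorkshire these shares were 14.6% and 9.90%, and for Landrace over Yorkshire 32.3% and 34.4%. The libraries are therefore also compared in pairs that cross the types, the first of Diannan Small Ear and Landrace, the second of Tibetan and Yorkshire. Whether labels were exchanged between types was not tested. The 5 most abundant miRNAs (miR-1, miR-10b, miR-486, miR-133a-3p and miR-26a) took 82.2% of the Diannan Small Ear, 88.0% of the Tibetan, 71.0% of the Landrace and 94.5% of the Yorkshire counts, so CPM values, counts scaled to the size of the library, depend on the scaling. Ratios between miRNAs inside a library do not.

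The tissue was checked against 8 listed striated muscle miRNAs, all with reads in the Tibetan and Yorkshire libraries and 7 with reads in the other two, where miR-499-3p was at 0. Together they made up 5.83% of the Diannan Small Ear, 89.9% of the Tibetan, 7.36% of the Landrace and 96.7% of the Yorkshire counts. The sum was mostly miR-133a-3p in Diannan Small Ear and Landrace and mostly miR-1 in Tibetan and Yorkshire. After TMM scaling miR-133a-3p itself was near level, at 1.39-fold for Diannan Small Ear over Tibetan and 0.928-fold for Landrace over Yorkshire. Column totals multiply these ratios by 1.35 and 6.42, so miR-133a-3p was not level under that scaling. The 3 erythroid miRNAs summed to 11.8%, 0.609%, 14.3% and 0.204% in the order Diannan Small Ear, Tibetan, Landrace and Yorkshire, almost wholly through miR-486, which muscle also makes. The other erythroid rows did not follow it. miR-451 measured 63.7, 234, 111 and 93.4 CPM and miR-144 3.67, 136, 6.31 and 44.0 CPM in that order, so they were 3.67-fold and 37.1-fold higher in Tibetan than in Diannan Small Ear. The 2 liver markers summed to 0.0668%, 0.000974%, 0.0954% and 0.000411%, almost wholly through miR-192 in Diannan Small Ear and Landrace. miR-192 measured 499, 7.07, 417 and 7.06 CPM, while miR-122 was sparse at 2.67, 2.83, 14.1 and 4.89 CPM. In the same order the 2 arms of the endothelial miR-126 summed to 0.335%, 0.297%, 0.643% and 0.0626%. The arms went opposite ways after TMM scaling. miR-126-5p measured 2365, 1859, 2726 and 1238 CPM, and miR-126-3p 146, 1152, 180 and 578 CPM. The 7 stromal rows, led by miR-143-3p, summed to 1.48%, 1.60%, 2.97% and 0.295%. Of 6 tested stromal rows, 5 were at least 2-fold lower after TMM scaling in Diannan Small Ear than in Tibetan, and 0 higher. The shares of all miRNAs were 36.6% and 27.3%. In Landrace over Yorkshire 3 of the 6 were lower and 0 higher, beside 34.4% and 32.3%. The leading miR-143-3p was not among the lower rows, at 0.739-fold for Diannan Small Ear over Tibetan and 1.76-fold for Landrace over Yorkshire. The 4 white blood cell rows, led by miR-142-5p, summed to between 0.00303% and 0.0119%. No marker of these other cell types was at 0. After TMM scaling miR-486, miR-192 and miR-126-5p, like miR-378, were thus higher in Diannan Small Ear and Landrace than in Tibetan and Yorkshire. miR-1, miR-144, miR-126-3p and miR-142-3p had the opposite division, and miR-142-5p had it only narrowly. miR-133a-3p, miR-451, miR-122 and miR-143-3p did not divide the libraries by pair. The part of these markers in the results was not tested.

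miR-378 was by far the most abundant of the 3. Diannan Small Ear had 44814 reads of it, Tibetan 7034, Landrace 31728 and Yorkshire 2599. These were 0.996% (95% Wilson interval 0.987 to 1.00), 0.196% (0.191 to 0.2004), 1.27% (1.25 to 1.28) and 0.0486% (0.0468 to 0.0505) of all counts. It ranked 10th, 19th, 12th and 20th among the 271 miRNAs, so it stood among the leading miRNAs in every library while its share spanned 26.0-fold. After TMM scaling its levels were 7475 CPM in Diannan Small Ear, 5720 CPM in Landrace, 1988 CPM in Tibetan and 1411 CPM in Yorkshire. Each type thus held 1 of the higher and 1 of the lower levels, and the types overlapped.

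The order of the miR-378 levels was beyond counting error at each step after TMM scaling. Diannan Small Ear was 1.31-fold above Landrace (95% exact binomial interval 1.29 to 1.33), Landrace 2.88-fold above Tibetan (2.80 to 2.95), and Tibetan 1.41-fold above Yorkshire (1.35 to 1.47). With column totals Landrace led, 1.27-fold above Diannan Small Ear (1.25 to 1.29). These intervals hold counting error alone, because reads were counted without molecular identifiers and need not be separate molecules, and 1 library per breed gives no replicate check.

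miR-103 followed another order. Tibetan had 781 reads of it, Landrace 480, Diannan Small Ear 374 and Yorkshire 219, which were 0.0217%, 0.0191%, 0.00831% and 0.00410% of the counts. After TMM scaling Tibetan was highest at 221 CPM, followed by Yorkshire at 119, Landrace at 86.5 and Diannan Small Ear at 62.4 CPM. Here the indigenous libraries held both the highest and the lowest level, with the introduced ones between them. Tibetan was 1.86-fold above Yorkshire (1.60 to 2.17), Yorkshire 1.37-fold above Landrace (1.17 to 1.62) and Landrace 1.39-fold above Diannan Small Ear (1.21 to 1.59). The place of Yorkshire depends on the scaling, since with column totals it was lowest, at 41.0 CPM against 217 in Tibetan, 191 in Landrace and 83.1 in Diannan Small Ear.

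miR-107 was sparse, with 51 reads in Landrace, 42 in Diannan Small Ear, 16 in Tibetan and 8 in Yorkshire. Its TMM-scaled levels were 9.20 CPM in Landrace, 7.01 in Diannan Small Ear, 4.52 in Tibetan and 4.34 in Yorkshire. No neighbours in this order differed beyond counting error: Landrace over Diannan Small Ear was 1.31-fold (0.855 to 2.02), Diannan Small Ear over Tibetan 1.55-fold (0.853 to 2.95) and Tibetan over Yorkshire 1.04-fold (0.420 to 2.81). With column totals the order was the same and each step exceeded counting error, the smallest being 2.10-fold for Diannan Small Ear over Tibetan (1.15 to 3.99). The mature sequences of miR-103 and miR-107 are near-identical, so reads may be shared between their rows, and the split between them is uncertain.

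**Figure D1:**
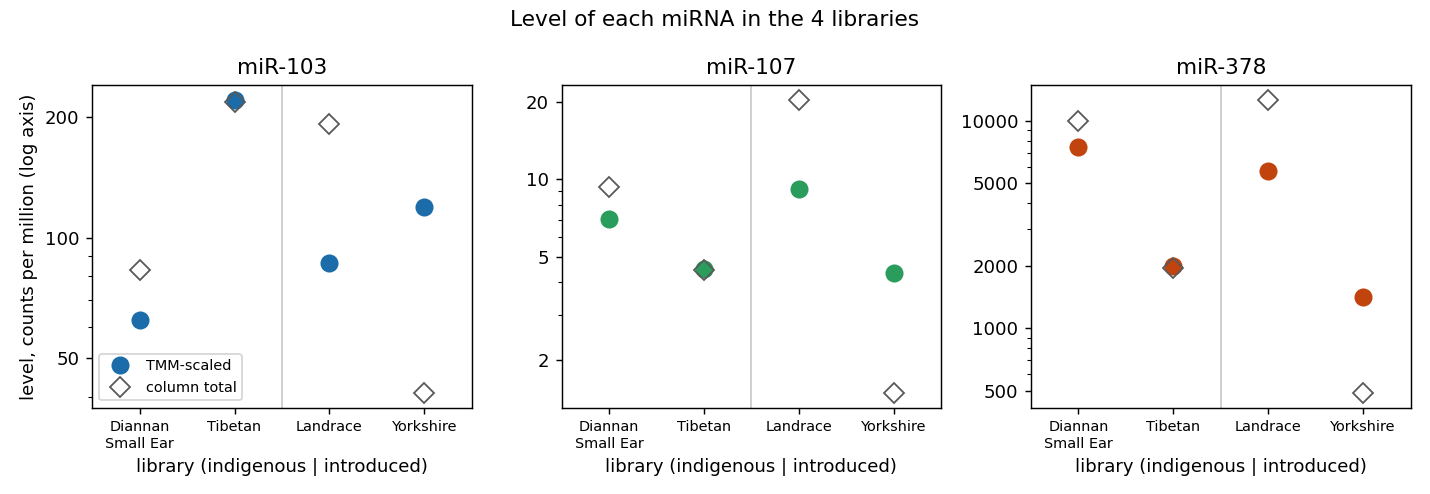
Level of miR-103, miR-107 and miR-378 in each of the 4 libraries, in CPM on a log axis; filled circles are TMM-scaled and open diamonds use the column total, with 1 library per point and no replicate error. miR-378 was high in Diannan Small Ear and Landrace, miR-103 was highest in Tibetan at 221 CPM, and the Yorkshire points moved most between the scalings.

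The ratio of miR-378 to miR-103, which is free of scaling, divided the libraries by pair. There were 120 miR-378 reads per miR-103 read in Diannan Small Ear (95% exact interval 108 to 133) and 66.1 in Landrace (60.4 to 72.5), but 11.9 in Yorkshire (10.3 to 13.7) and 9.01 in Tibetan (8.36 to 9.71). Within the indigenous type the ratio was 13.3-fold higher in Diannan Small Ear than in Tibetan (11.7 to 15.1), and within the introduced type 5.57-fold higher in Landrace than in Yorkshire (4.70 to 6.58). The type difference had opposite signs in the library pairs, with Diannan Small Ear 1.81-fold above Landrace (1.58 to 2.08) and Tibetan 1.32-fold below Yorkshire (1.12 to 1.55). Summing miR-103 with miR-107, so that shared reads cannot matter, left ratios of 108, 8.83, 59.8 and 11.4 in Diannan Small Ear, Tibetan, Landrace and Yorkshire.

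The ratio of miR-103 to miR-107 ran the other way. It was 8.90 in Diannan Small Ear (6.46 to 12.6) and 9.41 in Landrace (7.04 to 12.8), against 48.8 in Tibetan (29.9 to 85.8) and 27.4 in Yorkshire (13.7 to 64.2). Tibetan was 5.48-fold above Diannan Small Ear (2.97 to 10.6) and Yorkshire 2.91-fold above Landrace (1.34 to 7.21). Inside the library pairs the ratio did not differ beyond counting error, at 1.06-fold for Landrace over Diannan Small Ear (0.670 to 1.66) and 1.78-fold for Tibetan over Yorkshire (0.651 to 4.48). For these seed-sharing miRNAs the balance therefore differed between libraries of 1 type, as far as their reads can be assigned.

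The ratio of miR-378 to miR-107 varied least, at 1067 in Diannan Small Ear (789 to 1481), 622 in Landrace (473 to 836), 440 in Tibetan (271 to 770) and 325 in Yorkshire (165 to 753). Diannan Small Ear was 2.43-fold above Tibetan (1.27 to 4.41), while Landrace was 1.91-fold above Yorkshire with an interval that includes no difference (0.784 to 4.07).

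**Figure D2:**
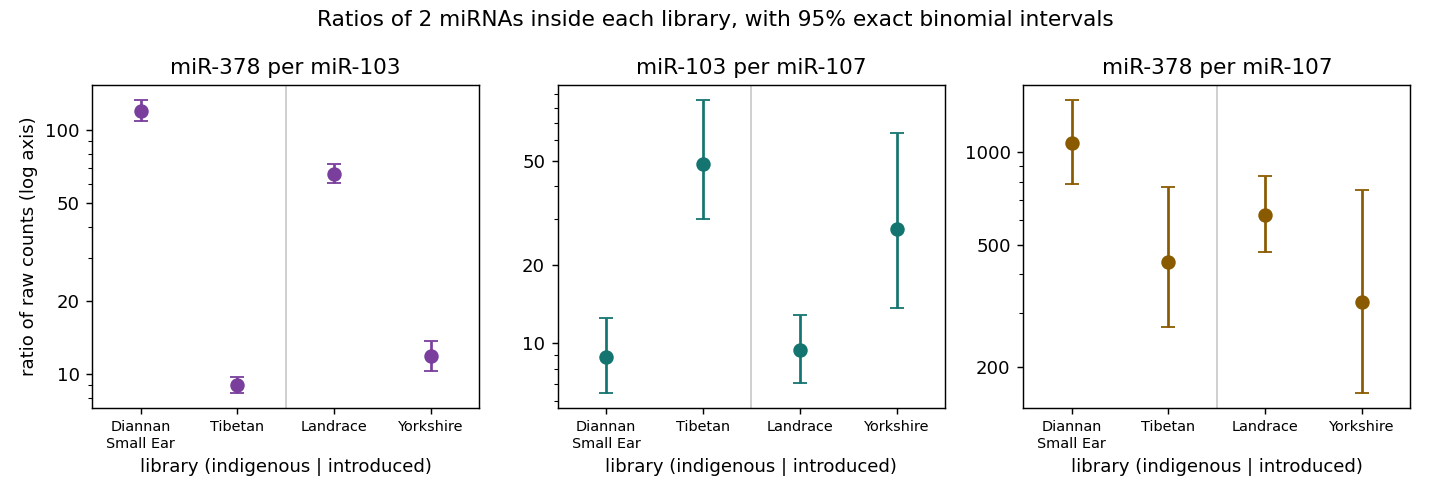
Ratios of raw counts of 2 miRNAs inside each library, on log axes, with 95% exact binomial intervals that cover counting error only. miR-378 per miR-103 lay at 120 and 66.1 in Diannan Small Ear and Landrace and at 9.01 and 11.9 in Tibetan and Yorkshire, and miR-103 per miR-107 showed the opposite division.

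Between breeds of a type, miR-378 was 3.76-fold higher in Diannan Small Ear than in Tibetan (3.67 to 3.86), and 34 of the 194 miRNAs with reads in both had a larger ratio. miR-103 was 3.54-fold lower (3.12 to 4.01), with 145 of 194 above it. Of the 3 miRNAs, 1 was thus at least 2-fold higher and 1 at least 2-fold lower, beside 27.3% and 36.6% of all miRNAs tested, and with column totals 2 were higher and 1 lower, beside 37.6% and 32.5%. Changes of this size were common among the miRNAs of these libraries.

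In Landrace, miR-378 was 4.05-fold higher than in Yorkshire (3.89 to 4.22), with 36 of 192 miRNAs above it, and miR-107 was 2.12-fold higher (0.997 to 5.17). That made 2 of 3 at least 2-fold higher beside 32.3% of all tested, and 0 of 3 at least 2-fold lower beside 34.4%. miR-103 was 1.37-fold lower after TMM scaling but 4.67-fold higher with column totals (3.98 to 5.51). Column totals multiply every ratio of Landrace over Yorkshire by 6.42, and then all 3 were at least 2-fold higher, beside 73.4% of all miRNAs.

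Across the types, inside the library pairs, 0 of 3 differed at least 2-fold after TMM scaling. The shares of all miRNAs were 4.08% higher and 4.59% lower for Diannan Small Ear over Landrace, and 14.6% higher and 9.90% lower for Tibetan over Yorkshire. miR-378 was higher in the indigenous library of both pairs, 1.31-fold and 1.41-fold, with 44 of 196 and 60 of 192 miRNAs at a larger ratio. With column totals Landrace was 1.27-fold above Diannan Small Ear, and miR-378 was 4.03-fold higher in Tibetan than in Yorkshire. miR-103 had opposite directions, 1.39-fold higher in Landrace than in Diannan Small Ear but 1.86-fold higher in Tibetan than in Yorkshire, with 161 of 196 and 33 of 192 miRNAs at a larger ratio of indigenous over introduced. With column totals Diannan Small Ear was at least 2-fold below Landrace in 2 of 3, miR-103 and miR-107, beside 30.6% of all miRNAs, and all 3 at least 2-fold higher in Tibetan than in Yorkshire beside 79.7%.

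**Figure D3:**
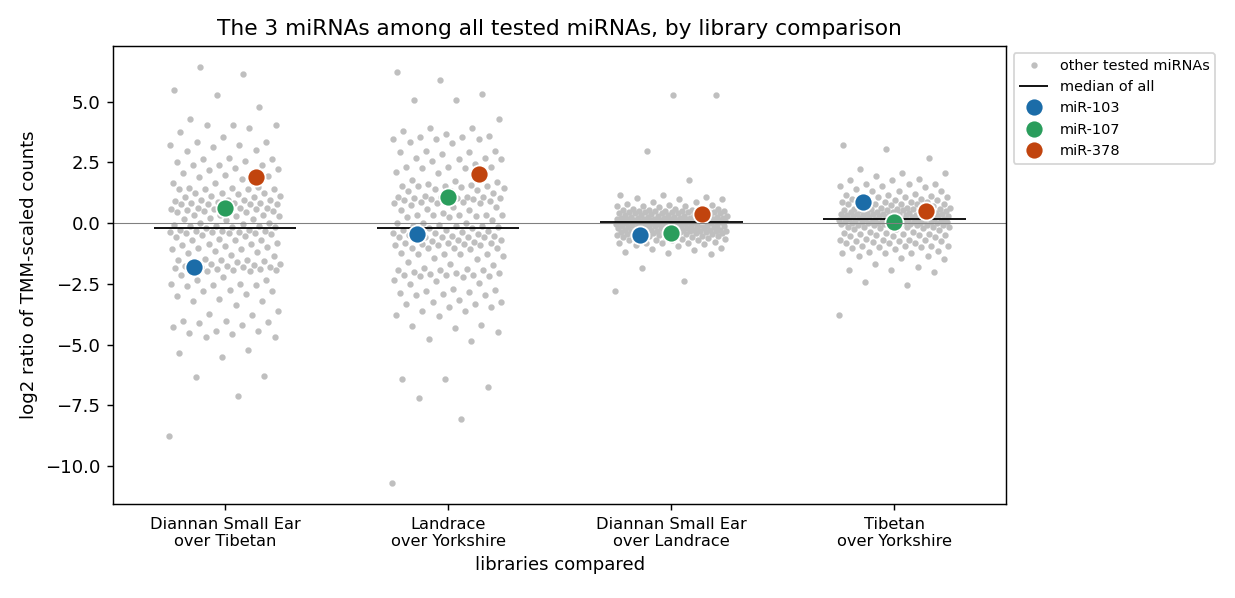
Log2 ratio of TMM-scaled counts between single libraries for each tested miRNA with reads in both (grey points; black line, median), with the 3 miRNAs in colour. In Diannan Small Ear over Tibetan, miR-378 lay above the median of -0.19 at 1.91 and miR-103 below it at -1.82, and the spread of all miRNAs was narrower in the comparisons that cross the types.

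Between the types as a whole, none of the 3 was called. miR-378 measured 4732 ± 3880 CPM (mean and SD of TMM-scaled levels, n = 2) for the indigenous and 3566 ± 3047 CPM (n = 2) for the introduced type. Its log2 fold change was 0.41 ± 1.30 (SE; edgeR adjusted p = 0.996). The 95% interval of this change ran from -3.05 to 3.86, so large differences in either direction are compatible with it. miR-103 measured 142 ± 112 against 102.7 ± 22.9 CPM (log2 fold change 0.46 ± 1.02, 95% interval -2.24 to 3.17). miR-107 measured 5.76 ± 1.76 against 6.77 ± 3.43 CPM (-0.24 ± 0.84, interval -2.47 to 1.98), and both had an edgeR adjusted p of 0.996. Of all 197 miRNAs, 0 (0%) were called by edgeR, DESeq2 or limma-voom, each of which gave 1 miRNA an unadjusted p under 0.05. The median log2 fold change of all tested miRNAs was 0.12.

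The types overlapped in all 3 miRNAs, as in most of the miRNAs tested, of which 13.7% had types that did not overlap. The estimate turned negative for miR-378 with column totals (-0.14 ± 2.69), without Diannan Small Ear (-0.97) and without Yorkshire (-0.39), and was 1.91 without Landrace and 1.07 without Tibetan. That of miR-103 was -0.72 without Tibetan and 0.99 without Diannan Small Ear. That of miR-107 was 0.57 without Landrace, 0.03 without Tibetan, -0.72 without Diannan Small Ear and -0.79 without Yorkshire.

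In the authors' deposited table miR-378 has a ratio of indigenous over introduced of 0.907 with an FDR of 2.54e-07, and it is 1 of the 83 of 271 miRNAs (30.6%) with a deposited FDR under 0.05. The authors' deposited table gives miR-103 a ratio of 1.29 with an FDR of 0.109, and miR-107 a ratio of 0.631 with an FDR of 0.851. The authors' deposited means for miR-378 were 5957 and 6571 CPM, each over a pair of libraries that differed 5.09-fold within the indigenous and 26.0-fold within the introduced type by column totals.

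**Figure D4:**
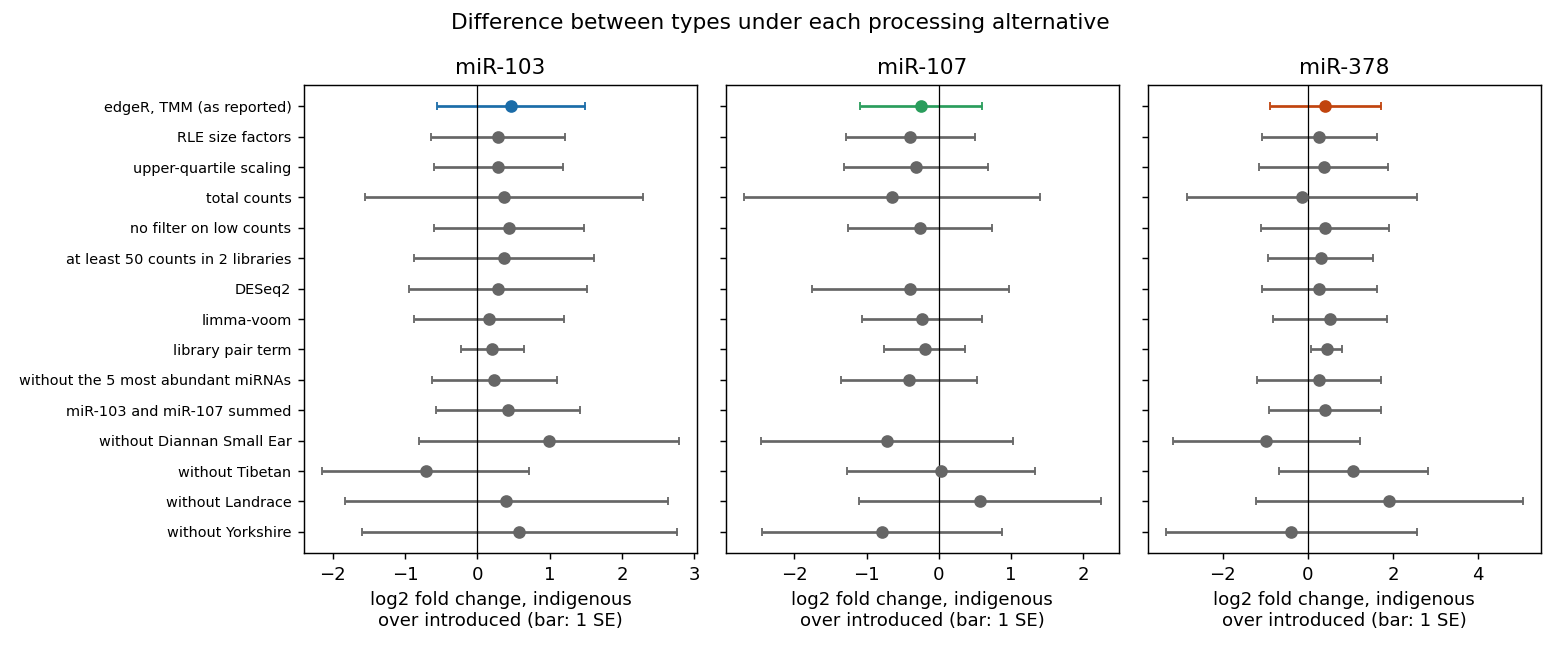
Log2 fold change of indigenous over introduced breeds for each miRNA under each processing alternative, with bars of 1 standard error; a missing point means that the miRNA had no row or too few counts in that setting. The estimates for miR-378 ran from -0.97 to 1.91 and no setting passed the threshold for any of the 3.

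Over the 4 libraries, the SD of log2 CPM (prior count 2) was 0.48 for miR-107, 0.77 for miR-103 and 1.16 for miR-378, beside a median of 0.97 over all tested miRNAs. By this measure 16.2%, 40.1% and 57.4% of miRNAs were steadier. miR-103 is commonly used as a reference for miRNA measurements by PCR, and was set beside 8 rows of other common references (miR-16, miR-191, both arms of miR-423, let-7a, miR-26a, miR-186 and miR-320).

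The reference miRNAs themselves were not steady. In Diannan Small Ear over Tibetan 6 of 8 were at least 2-fold higher and 0 lower, beside 27.3% and 36.6% of all miRNAs, with a median log2 ratio of 1.75 against -0.19 for all. In Landrace over Yorkshire 5 of 8 were higher and 0 lower, beside 32.3% and 34.4%, with a median of 1.54 against -0.21. miR-191 was 38.8-fold higher in Diannan Small Ear than in Tibetan, let-7a 9.29-fold and miR-26a 3.16-fold. Between types 0 of the 8 passed the edgeR threshold.

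Relative to the summed references, miR-378 was the steadiest of the 3. That sum divided the libraries as miR-378 did, at 47192, 8610.5, 41037 and 11356 TMM-scaled CPM in Diannan Small Ear, Tibetan, Landrace and Yorkshire. Its make-up also shifted, since miR-26a and miR-191 measured 21560.4 and 18941 CPM in Diannan Small Ear but 6826 and 488 CPM in Tibetan. There were 158 miR-378 reads per 1000 reference reads in Diannan Small Ear (157 to 160), 139 in Landrace (138 to 141), 231 in Tibetan (225 to 237) and 124 in Yorkshire (119 to 129), a range of 1.86-fold. miR-103 had 1.32 (1.19 to 1.46), 2.11 (1.92 to 2.31), 25.6 (23.9 to 27.5) and 10.5 (9.12 to 11.96) in the same order, a range of 19.4-fold. miR-107 had 0.148 (0.107 to 0.201), 0.224 (0.167 to 0.295), 0.525 (0.300 to 0.853) and 0.382 (0.165 to 0.754) in that order, a range of 3.54-fold. These values were higher in Tibetan and Yorkshire, the opposite of its TMM-scaled levels, but the intervals of Landrace and Yorkshire overlapped. Against each reference alone, miR-103 was lower in Diannan Small Ear than in Tibetan for 8 of 8, by 5.09-fold (the smallest) to 137-fold (against miR-191), and lower in Landrace than in Yorkshire for 8 of 8, by 1.76-fold to 46.0-fold. The references themselves had median log2 ratios of 1.75 and 1.54 in these comparisons, which lowers any miRNA set against them. In Landrace over Yorkshire 104 of 192 miRNAs had a larger ratio than miR-103, so it lay near the middle of all. miR-378 was higher for 5 and lower for 3 of the 8 in both of these comparisons, so its direction depended on the reference. Across the types miR-378 was higher in the indigenous library against all 8 references in both pairs, by 1.03-fold to 1.67-fold in Diannan Small Ear over Landrace and by 1.07-fold to 2.22-fold in Tibetan over Yorkshire. The references are not independent of each other, and each value rests on 1 library a side. How many of all miRNAs would give the same 8 of 8 counts was not determined.

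With the 5 most abundant miRNAs taken out, miR-378 made up 5.59% of the remaining counts in Diannan Small Ear (95% Wilson interval 5.54 to 5.64), 4.36% in Landrace (4.32 to 4.41), 1.64% in Tibetan (1.60 to 1.68) and 0.878% in Yorkshire (0.845 to 0.912). miR-103 made up 0.0467% in Diannan Small Ear (0.0422 to 0.0516), 0.0660% in Landrace (0.0604 to 0.0722), 0.0740% in Yorkshire (0.0648 to 0.0844) and 0.182% in Tibetan (0.170 to 0.195). The orders were those of the TMM-scaled levels, but for miR-103 the intervals of Landrace and Yorkshire overlapped.

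The miRNAs nearest to each pattern were found by the Euclidean distance between centred log2 CPM over the 4 libraries. For miR-378 they were miR-421-3p (distance 0.14), miR-423-5p (0.39) and miR-186 (0.42). The latter pair are on the list of references, and miR-421-3p had only 42, 6, 29 and 2 reads in Diannan Small Ear, Tibetan, Landrace and Yorkshire. For miR-103 they were miR-199b-3p (0.26), miR-30b-3p (0.27) and miR-199a-3p (0.34), and for miR-107 let-7d-3p (0.27), miR-320 (0.32) and miR-1307 (0.32). Sparse rows here were miR-30b-3p, with 7, 15, 10 and 4 reads in the same library order, and miR-1307, with 35, 12, 52 and 6. The miR-199 3p arms are near-identical to each other and are abundant in stromal cells. The leading stromal row, miR-143-3p, did not share the order of miR-103. It measured 10759, 14558, 13015 and 7406 CPM in Diannan Small Ear, Tibetan, Landrace and Yorkshire. A stromal part in the miR-103 pattern was not tested. miR-107 was not among the nearest to miR-103, at a distance of 2.02 with 95 miRNAs closer. It was nearer to miR-378, at 1.32 with 63 miRNAs closer to miR-107 than miR-378 was.

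**Figure D5:**
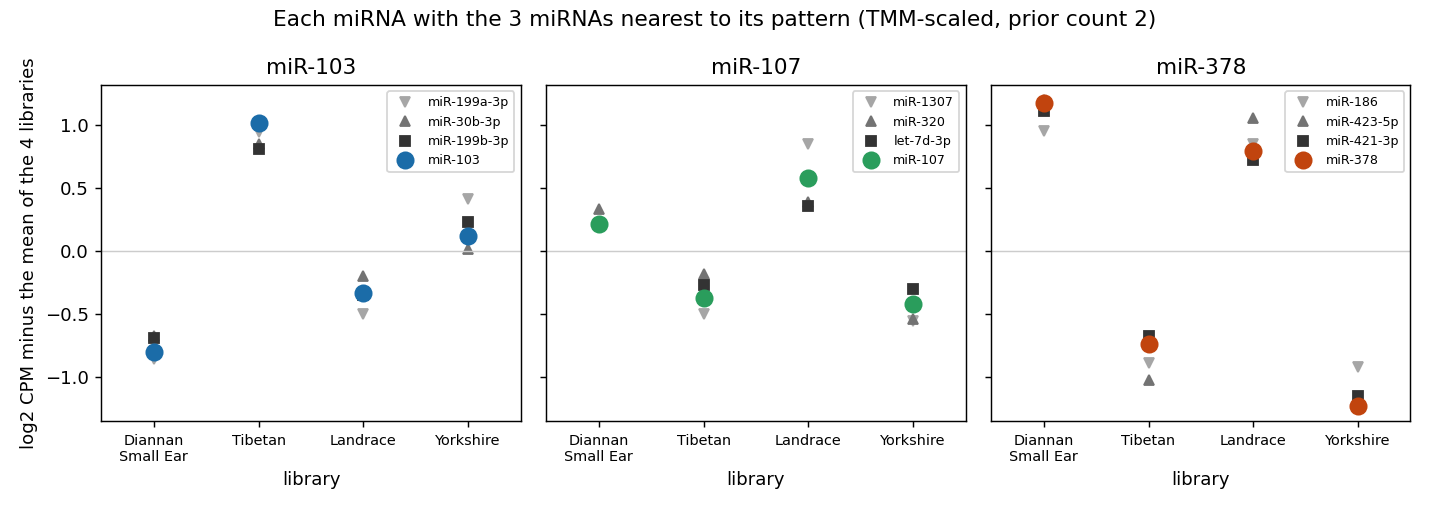
Centred log2 CPM (TMM-scaled, prior count 2) of each of the 3 miRNAs, in colour, and of the 3 miRNAs nearest to its pattern, in grey, in the 4 libraries. miR-103 peaked in Tibetan together with miR-199b-3p and miR-199a-3p, whereas miR-378 was high in Diannan Small Ear and Landrace together with miR-421-3p, miR-423-5p and miR-186.

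The miR-15/16 group, whose 5p members share with miR-103 and miR-107 part of the seed region, was described next. Of 8 tested rows, Diannan Small Ear was at least 2-fold above Tibetan in 2 and below it in 4, beside 27.3% and 36.6% of all miRNAs (median log2 ratio -0.45 against -0.19 for all). In Landrace over Yorkshire 0 of 7 were higher and 3 lower, beside 32.3% and 34.4% (-0.83 against -0.21). miR-195, which represses cell cycle genes, measured 177 CPM in Tibetan, 136 in Yorkshire, 76.3 in Landrace and 61.4 in Diannan Small Ear, the same order as miR-103. miR-16, the most abundant of the group, measured 835, 390, 785 and 614 CPM in Diannan Small Ear, Tibetan, Landrace and Yorkshire, and miR-15a 74.2, 38.2, 51.7 and 105 CPM. Between types 0 of 8 passed the edgeR threshold, 5 with higher and 3 with lower estimates in indigenous breeds.

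Other miRNAs of lipid and oxidative metabolism had 28 listed rows, of which 23 were tested. Between types 0 passed the edgeR threshold, with 11 higher and 12 lower estimates and a median log2 fold change of -0.01 against 0.12 for all miRNAs. Of 22 with reads in both libraries, 8 were at least 2-fold higher and 9 lower in Diannan Small Ear than in Tibetan, beside 27.3% and 36.6% of all miRNAs. In Landrace over Yorkshire 7 of 21 were higher and 7 lower, beside 32.3% and 34.4%. Inside the library pairs, Diannan Small Ear was at least 2-fold above Landrace in 1 of 22 and below it in 5, beside 4.08% and 4.59% of all miRNAs, and Tibetan was above Yorkshire in 3 of 22 and below it in 2, beside 14.6% and 9.90%. The most abundant were miR-26a, which acts on insulin signalling in mouse liver, miR-143-3p, which promotes adipocyte differentiation, and miR-27b-3p, which inhibits it. miR-27b-3p, like miR-378, was higher in Diannan Small Ear (7259 CPM) and Landrace (8461 CPM) than in Tibetan (2754 CPM) and Yorkshire (2901 CPM). miR-26a divided the libraries in the same way, at 21560.4, 6826, 16974 and 9283 CPM in Diannan Small Ear, Tibetan, Landrace and Yorkshire. miR-143-3p did not, at 10759, 14558, 13015 and 7406 CPM.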

How the data were processed

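Raw read counts per known miRNA were deposited for 4 libraries, per the file headers, together with the authors' CPM values (count over column total, within 4.2e-05 CPM), a mean signal per type, the ratio (fold) of those means, and p-values with FDR from an unnamed test. RNA was extracted with Trizol and a Balancer small RNA kit was used, per the labels' protocols. Not given in the sources used here were the aligner, the miRNA database and the build.

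From the deposited counts, types were compared with edgeR 4.0.16 (quasi-likelihood, two-sided, TMM, filterByExpr, 2 residual degrees of freedom) over 197 miRNAs, with Benjamini-Hochberg adjustment at 0.05. Single libraries were compared without a test. Intervals are 95% exact binomial or Wilson, computed with scipy 1.17.1, and for a ratio of 2 ratios the exact conditional interval of an odds ratio. A count of 0 allows 3 counts, 0.561 to 1.20 CPM over the libraries.

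The members, the library pairs and the lists were chosen with earlier results of these data known. Named are every member, the 3 nearest patterns per member and the 3 most abundant tested rows per described list, and for marker lists at least the leading row. Alternatives were RLE, upper-quartile and column-total scaling, other filters (none, or 50 counts in 2 libraries), DESeq2 1.42.0, limma-voom (limma 3.58.1), a library pair term, removal of the 5 most abundant miRNAs, summed miR-103 and miR-107, and each library left out. The sum inside the miR-378 ratio and the shares without the 5 most abundant miRNAs were added after seeing the data.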

Additional observations from a re-analysis of the deposited data

Results flagged for a closer look

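The difference between types had opposite signs in the library pairs for miR-103 and miR-107, with 1 library a side, and this disagreement was not tested. For miR-103 the log2 ratio was -0.47 for Diannan Small Ear over Landrace and 0.89 for Tibetan over Yorkshire, and with column totals -1.20 and 2.41. For miR-107 the log2 ratios were -0.39 and 0.0584, where both counting intervals include no difference and the latter value turned negative with RLE scaling.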

How the results depend on the processing

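No alternative called any of the 3 miRNAs between types. The pair term gave 1 call in all, miR-29b, against 0. The estimate of miR-378 turned to -0.14 with column totals. Leaving out 1 library moved the estimates from -0.72 to 0.99 (miR-103), -0.79 to 0.57 (miR-107) and -0.97 to 1.91 (miR-378); such a fit leaves 1 library pair incomplete. miR-107 had too few counts for the stricter filter.

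Ratios between libraries moved with scaling. With RLE factors, Tibetan over Diannan Small Ear was 3.06-fold for miR-103, and miR-378 was 4.34-fold (Diannan Small Ear over Tibetan), 4.69-fold (Landrace over Yorkshire), 1.19-fold (Diannan Small Ear over Landrace) and 1.29-fold (Tibetan over Yorkshire). With upper quartiles, miR-103 was 2.43-fold and Yorkshire over Landrace fell to 0.996; miR-378 was 5.47-fold, 5.59-fold and, for Tibetan over Yorkshire, 1.32-fold. With column totals, miR-103 was 2.62-fold for Tibetan over Diannan Small Ear, 0.214-fold for Yorkshire over Landrace, 2.30-fold for Landrace over Diannan Small Ear and 5.31-fold for Tibetan over Yorkshire. miR-107 was 13.6-fold for Landrace over Yorkshire, 2.18-fold for Landrace over Diannan Small Ear and 2.98-fold for Tibetan over Yorkshire. miR-378 was 5.09-fold, 26.0-fold, 0.787-fold and 4.03-fold in the order given for RLE.

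With column totals the SD of log2 CPM rose to 1.12 for miR-103, 1.44 for miR-107 and 2.20 for miR-378. Leaving out 1 library gave an SD of 0.46 (without Tibetan) to 0.94 for miR-103, 0.35 to 0.57 for miR-107 and 1.01 to 1.29 for miR-378. Summing miR-103 with miR-107 lowered the miR-378 ratio to 108 in Diannan Small Ear and 59.8 in Landrace. Types overlapped for all 3 under each of the 4 scalings. No second arm was listed to sum. The labels give no replicate numbers, so the pair term above, taken from the likeness of the libraries, was the paired fit that was run. Depth limits miR-107 most, at 8 to 51 reads.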

Other observations

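Relative to the summed striated muscle miRNAs, miR-378 differed most. There were 171 miR-378 reads per 1000 muscle reads in Diannan Small Ear (169 to 172) and 172 in Landrace (170 to 174), which agree within counting error, but 2.18 in Tibetan (2.13 to 2.23) and 0.503 in Yorkshire (0.484 to 0.523). The same measure gave 1.42, 0.242, 2.60 and 0.0424 for miR-103 in Diannan Small Ear, Tibetan, Landrace and Yorkshire. The muscle sum was mostly miR-1 in Tibetan and Yorkshire, where miR-1 measured 846986 and 2689160 TMM-scaled CPM against 1925 in Diannan Small Ear and 1606 in Landrace.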
